A study of Mus musculus with 9 samples.

Results

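The metallothionein genes Mt1 and Mt2, the metal-responsive transcription factor gene Mtf1 and the zinc exporter gene Slc30a1 were followed in mRNA of the mouse colon carcinoma line MC38. These 4 genes were taken from the 16509 genes of the expression table by their symbols, and all 4 were among the 11949 genes that passed a filter on low counts and were tested. The 9 libraries held 3 replicates each of control cells (Ctrl), of cells given copper and cystine (Cu-Cys) and of cells given Cadict. Cadict is a nanodrug built by coordination of copper with cystine, which also carries glucose oxidase and GE11, a peptide that binds the EGF receptor. The treatment label of Ctrl is DMSO, whereas the study's text names PBS, and no genotype, dose or time of treatment is given for these libraries. All groups share the same cell line. The study's text says in general terms that its cell culture work was repeated independently and that n counts biological replicates, but neither it nor the labels say for these libraries that each replicate was a separate culture, so part of the spread behind the p-values may be technical.

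Metallothioneins are small cysteine-rich proteins that hold zinc and copper ions in the cytosol. MTF1 is a zinc-finger protein that senses free zinc, enters the nucleus and binds short metal response elements (MREs) in the promoters of the metallothionein genes and of Slc30a1. The latter encodes ZnT1, which carries zinc out of the cell across the plasma membrane, and copper can act on the same switch by displacing zinc from proteins that bind it.

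Total expected counts were 18154400 to 18293056 in Ctrl, 17974309 to 18139276 in Cu-Cys and 17905771 to 17948181 in Cadict libraries. Where no read was counted, the depth allows a level of up to 3 counts, and that limit covers counting error only. Levels below are CPM, read counts brought to a common library size, scaled with TMM in edgeR, for which the 3 groups had factors of 1.26 to 1.27, 1.21 and 0.64 to 0.665. Changes are log2 fold changes with their standard error (SE). Scaling by library totals instead moved the median log2 fold change of all genes tested in Cadict against Ctrl from -0.13 to -1.08, so changes in Cadict-treated cells are relative to the typical gene. Genes called higher were 43.3% of those called in Cadict against Ctrl with TMM, against 11.9% with library totals, and 44.1% against 10.8% in Cadict against Cu-Cys. Of the labelled cell type's defining markers, 7 of 8 epithelial genes were in the table, and their summed level was 4.25 to 6.24 TPM (a transcript abundance corrected for length and library size) in Ctrl, 3.5 to 3.95 in Cu-Cys and 11.5 to 13.3 in Cadict, with Epcam at 0 in every Ctrl and Cu-Cys library. Krt19 was at 1.72 to 3.2 TPM in Ctrl and 8.36 to 9.31 in Cadict, and Cdh1 at 2.21 to 2.75 and 2.39 to 2.92. No other of these epithelial genes exceeded 0.87 TPM in any library, so the higher sum in Cadict was mainly that of Krt19. Egfr, which encodes the receptor that GE11 binds, was at 0 to 0.08 TPM in Ctrl. The 3 fibroblast markers Col1a1, Col1a2 and Pdgfra summed to 260 to 282 TPM in Ctrl, 131 to 138 in Cu-Cys and 20.8 to 26 in Cadict, and their part in the changes below was not tested. In bulk RNA, fewer cells of a type and less RNA per cell cannot be told apart. Cadict replicate 2 stood apart from the other Cadict libraries, with a chi-square per degree of freedom of 18.5 and 29.4 against them, where replicates 1 and 3 gave 4.29, so members' changes in Cadict are also given without it.

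The genes lie on 3 chromosomes of GRCm38 (GENCODE M21), all on the plus strand. Mt2 (chr8:94172664-94173568) and Mt1 (chr8:94179082-94180327) each have 3 exons and lie next to each other, with 5514 bases from the end of Mt2 to the start of Mt1. Mtf1 (chr4:124802104-124849800) has 11 exons and Slc30a1 (chr1:191906767-191913247) has 2. No 50-base stretch of the 4 genes' transcripts occurred in the transcripts of another annotated gene (0% for each). Promoter letters are shown for the 3 members that moved most, because MTF1 is known to act through MREs in their promoters. Whether MTF1 binds at the matches marked below was not tested. Sequences are from RefSeq on GRCm38.p6, read 5′ to 3′ on the plus strand, and the capitals mark matches to the MRE core (TGCACNC or TGCGCNC on either strand).
Mt1, chr8:94178839-94179081: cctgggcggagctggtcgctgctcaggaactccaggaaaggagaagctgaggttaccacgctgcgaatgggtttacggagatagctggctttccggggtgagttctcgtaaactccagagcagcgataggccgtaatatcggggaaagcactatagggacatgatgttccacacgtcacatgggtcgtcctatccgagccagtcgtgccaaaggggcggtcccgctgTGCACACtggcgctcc
Mt2, chr8:94172368-94172617: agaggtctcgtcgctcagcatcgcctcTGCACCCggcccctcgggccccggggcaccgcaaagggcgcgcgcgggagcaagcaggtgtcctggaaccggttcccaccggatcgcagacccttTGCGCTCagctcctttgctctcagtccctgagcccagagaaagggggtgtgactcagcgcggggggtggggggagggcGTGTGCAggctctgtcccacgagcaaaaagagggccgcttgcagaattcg
Slc30a1, chr1:191906531-191906766: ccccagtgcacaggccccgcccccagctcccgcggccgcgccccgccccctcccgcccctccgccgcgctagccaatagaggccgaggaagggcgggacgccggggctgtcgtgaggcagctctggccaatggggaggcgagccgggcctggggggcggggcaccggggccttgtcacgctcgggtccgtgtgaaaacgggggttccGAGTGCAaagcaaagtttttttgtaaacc
Further matches lay just after the RefSeq start of each gene. That of Mt2 (chr8:94172622-94172628) still lies before the GENCODE start of Mt2 given above. These 30-base windows show the further matches with the same marking.
Mt1, chr8:94179089-94179118: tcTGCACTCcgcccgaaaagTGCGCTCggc
Mt2, chr8:94172611-94172640: gaattcgggtcGTGCGCAggcccaggggcg
Slc30a1, chr1:191906800-191906829: gcctccgggccGAGCGCAgtcgccgcggac

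Mt2 had 4 MRE matches in the window from 250 bases before to 50 after its RefSeq start, Mt1 had 3, Slc30a1 had 2 and Mtf1 had 0. Of 32851 promoter windows of that length in the same RefSeq table, 25.7% held at least 1 match, 7.11% at least 2, 1.97% at least 3 and 0.517% at least 4. The antioxidant response element letters TGACNNNGC, the site of the oxidative stress factor NRF2, occurred once each in the Mt2 and Slc30a1 windows and in 12.4% of all windows, searched on both strands, and did not overlap the MRE matches. The Mt1 and Mtf1 windows had 0 matches to the antioxidant letters. A count of 0 for either motif says only that the letters are not in that window, which ends 50 bases after the RefSeq start.

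**Figure D1:**
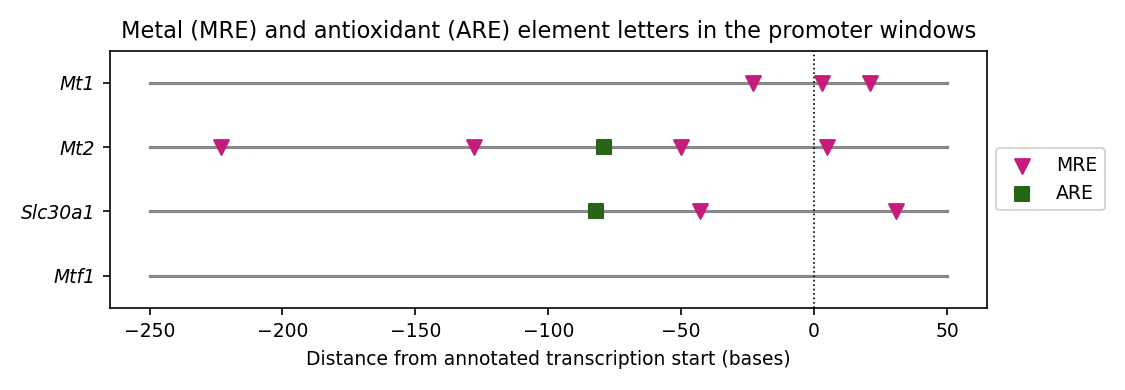
Positions of MRE core letters (triangles) and antioxidant response element letters (ARE, squares) in the promoter windows of the 4 genes, as distance in bases from the RefSeq start (dotted line). Mt2 shows 4 MRE matches, Mt1 3, Slc30a1 2 and Mtf1 0.

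Both metallothionein genes rose in Cu-Cys-treated cells and rose much further in Cadict-treated cells. Mt1 (Entrez 17748) was at 76.08, 80.3 and 72.12 CPM in the Ctrl libraries, at 236.3, 236 and 241.1 in Cu-Cys and at 1181, 1563 and 1212 in Cadict. The 3 groups did not overlap, and Cadict replicate 2 was the highest library. How many of all genes tested lacked overlap was not counted, so statements on overlap here and below only describe the libraries. The Mt1 level rose 3.12-fold from Ctrl to Cu-Cys (log2 fold change 1.64, SE 0.0886, adjusted p = 7.81e-09, quasi-likelihood test in edgeR, Benjamini-Hochberg adjusted over all genes tested). From Ctrl to Cadict it rose 17.3-fold (log2 fold change 4.11, SE 0.0957, adjusted p = 3.75e-15, same edgeR test), and without Cadict replicate 2 the log2 fold change was 3.97. Cadict exceeded Cu-Cys by 5.55-fold (log2 fold change 2.47, SE 0.0881, adjusted p = 5.69e-13, same edgeR test).

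Mt2 (Entrez 17750), which encodes a metallothionein with the same metal-binding role, started from a level close to that of Mt1. It was at 68.77, 74.72 and 69.24 CPM in Ctrl, at 175.4, 174.5 and 170.1 in Cu-Cys and at 1309, 1742 and 1377 in Cadict. Again the groups did not overlap and Cadict replicate 2 was the highest. Mt2 rose 2.44-fold in Cu-Cys against Ctrl (log2 fold change 1.29, SE 0.087, adjusted p = 7.01e-08, edgeR's quasi-likelihood test). In Cadict against Ctrl it rose 20.8-fold (log2 fold change 4.38, SE 0.0951, adjusted p = 1.75e-15, same edgeR test), or 4.24 on the log2 scale without Cadict replicate 2. Between Cadict and Cu-Cys the difference was 8.52-fold (log2 fold change 3.09, SE 0.0889, adjusted p = 5e-14, same edgeR test).

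Slc30a1 (Entrez 22782), the zinc exporter, moved by almost the same factors from a much lower level. It was at 5.926, 5.455 and 6.628 CPM in Ctrl, at 14.81, 15.73 and 13.13 in Cu-Cys and at 114.3, 109.9 and 127.5 in Cadict. No library of one group overlapped another, and Cadict replicate 2 was here the lowest of its group. Slc30a1 rose 2.42-fold in Cu-Cys (log2 fold change 1.28, SE 0.104, adjusted p = 3.89e-07, edgeR's quasi-likelihood test) and 19.5-fold in Cadict against Ctrl (log2 fold change 4.29, SE 0.0911, adjusted p = 1.43e-15, same edgeR test), or 4.33 on the log2 scale without Cadict replicate 2. Cadict exceeded Cu-Cys by 8.05-fold (log2 fold change 3.01, SE 0.0813, adjusted p = 2.63e-14, same edgeR test). With limma on log2 of the deposited values with a pseudocount of 1, the Cu-Cys change of this low gene was 0.83 for FPKM and 0.88 for TPM, under the fold change of 2 that a call required.

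Mtf1 (Entrez 17764), which encodes the sensor itself, differed from its 3 targets. Its level was 26.04, 25.11 and 24.81 CPM in Ctrl, 27.41, 27.16 and 27.18 in Cu-Cys and 55.83, 51.68 and 59.03 in Cadict. The groups did not overlap, although Ctrl and Cu-Cys lay close together. Between Cu-Cys and Ctrl it differed by 0.11 on the log2 scale, with a 95% interval of -0.0275 to 0.24, and did not pass (adjusted p = 0.182, edgeR's quasi-likelihood test). Mtf1 was 2.19-fold higher in Cadict than in Ctrl (log2 fold change 1.13, SE 0.0622, adjusted p = 7.23e-11, same edgeR test), and 1.18 on the log2 scale without Cadict replicate 2. Against Cu-Cys it was 2.04-fold higher (log2 fold change 1.03, SE 0.0621, adjusted p = 2.79e-10, same edgeR test), but 0.976 on the log2 scale without Cadict replicate 3, which is under the fold required.

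The Mtf1 call in Cadict depended on the scaling between libraries, whereas the calls of Mt1, Mt2 and Slc30a1 there did not. Its expected counts before scaling were 568.99 to 601.79 in Ctrl, 593.51 to 595.91 in Cu-Cys and 593.25 to 703.31 in Cadict, so that 1 Cadict library (replicate 2) lay within the range of the Ctrl libraries. With library totals the log2 fold change of Mtf1 in Cadict against Ctrl was 0.18 (adjusted p = 0.0205, edgeR's quasi-likelihood test), and with limma on TPM it was -0.15 and -0.17 with pseudocounts of 1 and 0.1. Mtf1 was therefore higher relative to the typical gene, whose median change was moved by the same scaling, and not by 2-fold as a share of all counts. The changes of Mt1, Mt2 and Slc30a1 in Cadict against Ctrl stayed positive and called under all 12 alternatives that kept every library, with log2 fold changes of 2.71 to 4.23 for Mt1, 2.99 to 4.50 for Mt2 and 2.56 to 4.41 for Slc30a1. All 9 expected counts of Mtf1 were fractional, although no 50-base stretch of its transcripts occurred in another annotated gene. The source of the fractions was not tested.

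**Figure D2:**
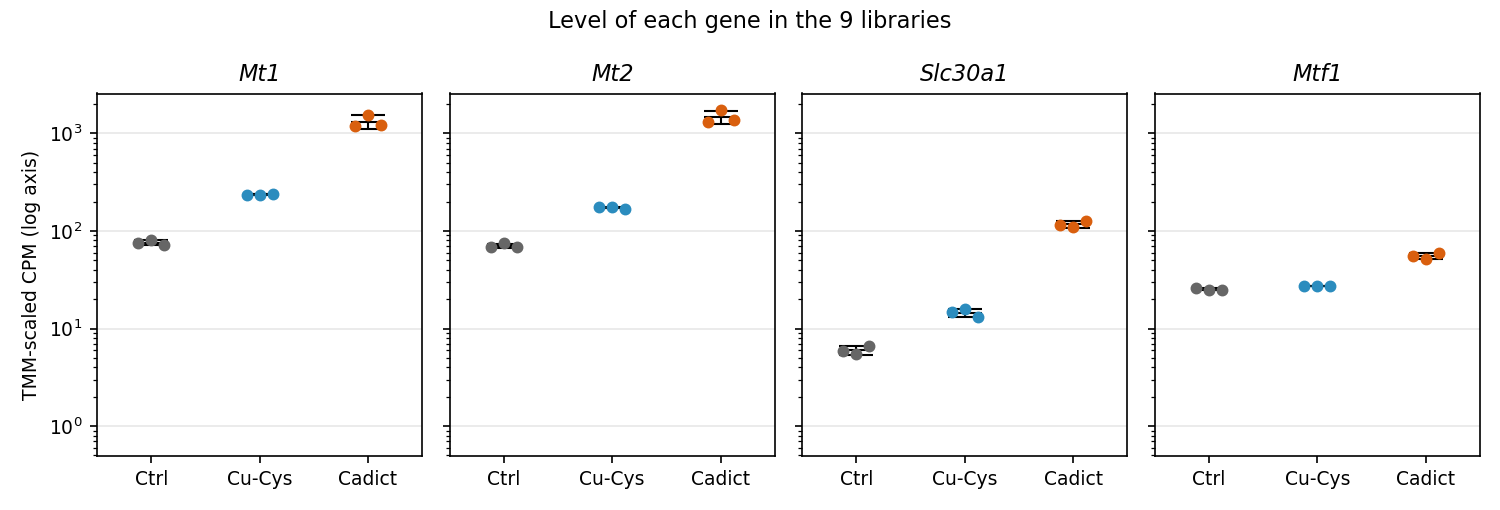
TMM-scaled CPM on a log axis for the 4 genes in each of the 9 libraries (points, coloured by group), with the group mean and SD (horizontal marks and bars, n = 3). Mt1, Mt2 and Slc30a1 step up from Ctrl to Cu-Cys to Cadict, while Mtf1 lies between 24.81 and 27.41 in Ctrl and Cu-Cys and between 51.68 and 59.03 in Cadict.

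**Figure D3:**
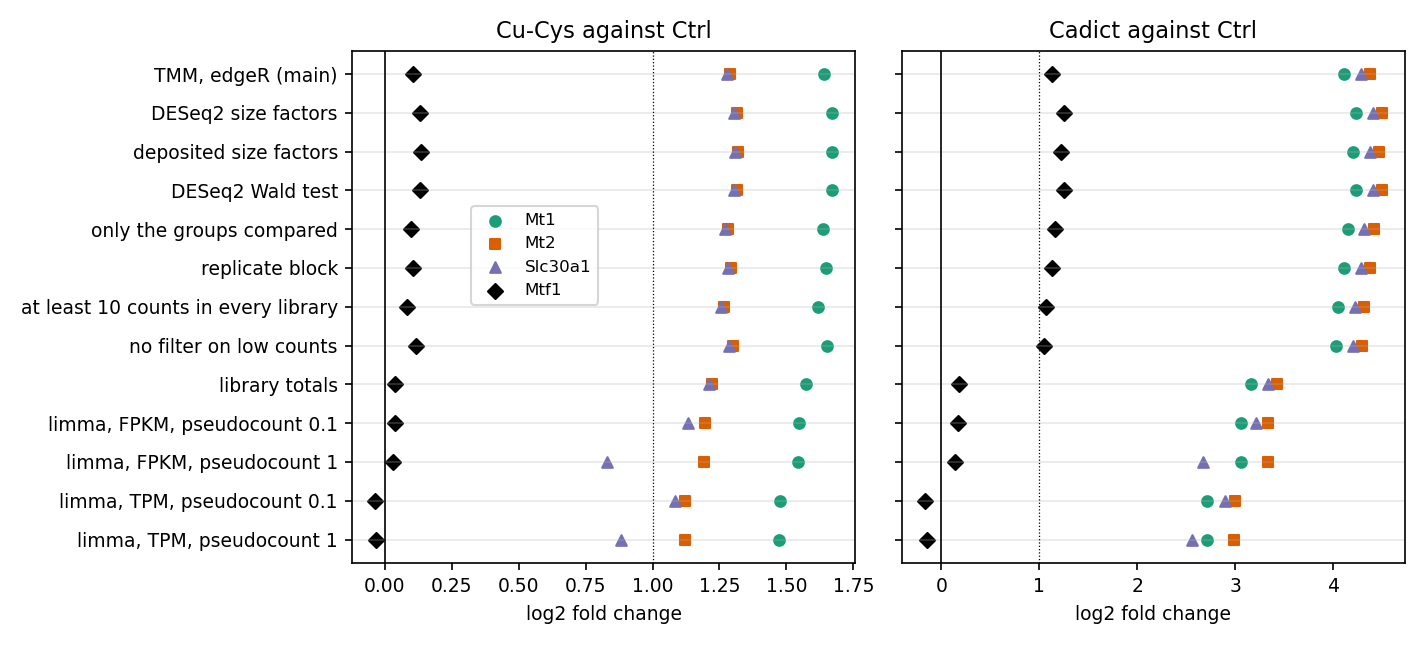
Log2 fold changes of Mt1, Mt2, Slc30a1 and Mtf1 in Cu-Cys against Ctrl (left) and Cadict against Ctrl (right) under TMM with edgeR and 12 alternatives. The dotted line marks a fold change of 2, and only Mtf1 falls from above it to near 0 in Cadict against Ctrl, in the 5 settings that use library totals, FPKM or TPM.

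Calls in Cu-Cys were rare among all genes tested and calls in Cadict were common. Calls required a fold change of 2 or more together with an adjusted p no higher than 0.001. In Cu-Cys against Ctrl 3 of the 4 members were called higher and 0 lower, where 0.167% of all genes tested were called higher and 1.47% lower. Mt1, Mt2 and Slc30a1 were thus among only 20 genes called higher, at ranks 8, 14 and 15 by log2 fold change. In Cadict against Ctrl all 4 members were called higher, where the background was 20.7% higher and 27.1% lower, and against Cu-Cys all 4 were again called higher, with 18.6% of genes called higher and 23.6% lower. By log2 fold change in Cadict against Ctrl, Mt2, Slc30a1 and Mt1 ranked 135, 141 and 155 among the 11949 genes tested, and Mtf1 ranked 2229. These comparisons share libraries, so the 3 sets of calls are not independent.

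Compared per transcript length, the metallothioneins stood far above the other members. In TPM, Mt1 averaged 763.3 ± 27.9 (SD, n = 3) in Ctrl, 2121 ± 65.3 in Cu-Cys and 5017 ± 358 in Cadict, and Mt2 averaged 670.9 ± 20.4, 1463 ± 75.7 and 5355 ± 394 (SD, n = 3 each). Slc30a1 averaged 2.697 ± 0.307, 5.813 ± 0.445 and 20.87 ± 3.58 TPM and Mtf1 averaged 7.393 ± 0.327, 7.207 ± 0.106 and 6.623 ± 1.06 TPM (SD, n = 3 each). The order in Ctrl was therefore Mt1, Mt2, Mtf1 and Slc30a1, while in Cadict Slc30a1 lay above Mtf1. By TPM among 16509 genes, Mt1 moved from ranks 169 to 185 in Ctrl to ranks 69 to 76 in Cu-Cys and 33 to 40 in Cadict. Mt2 moved from ranks 195 to 203 to ranks 105 to 116 and then 26 to 34, and Slc30a1 from ranks 10273 to 10482 to ranks 8921 to 9235 and then 3409 to 3753. Mtf1 moved from ranks 8927 to 8991 to ranks 8672 to 8689 and then 5987 to 6276, although its mean TPM was not higher in Cadict than in Ctrl, so a higher rank in Cadict did not require a higher TPM. The TPM of Mt1 remained 203 to 385 times that of Slc30a1 across the 9 libraries.

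The balance of the metallothionein genes differed between the groups. The count ratio of Mt2 to Mt1 was 0.904, 0.93 and 0.96 in Ctrl, 0.742, 0.739 and 0.705 in Cu-Cys and 1.11, 1.11 and 1.14 in Cadict. Cu-Cys libraries were thus the lowest and Cadict libraries the highest, with no overlap between groups. The ratio is formed within a library, so no scaling between libraries enters it. The log2 ratio differed from that in Ctrl by -0.353 in Cu-Cys and by 0.266 in Cadict (exact two-sided permutation test, p = 0.1 for each, the smallest p that 3 against 3 libraries allow). Between Cadict and Cu-Cys the difference was 0.619 on the log2 scale (exact two-sided permutation test, p = 0.1). Together both genes took 0.0186% ± 0.000882 of all counts in Ctrl, 0.0496% ± 8.24e-05 in Cu-Cys and 0.182% ± 0.0254 in Cadict (SD, n = 3 each), which is 2.67 and 9.79 times the Ctrl share (exact two-sided permutation test, p = 0.1 for each).

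**Figure D4:**
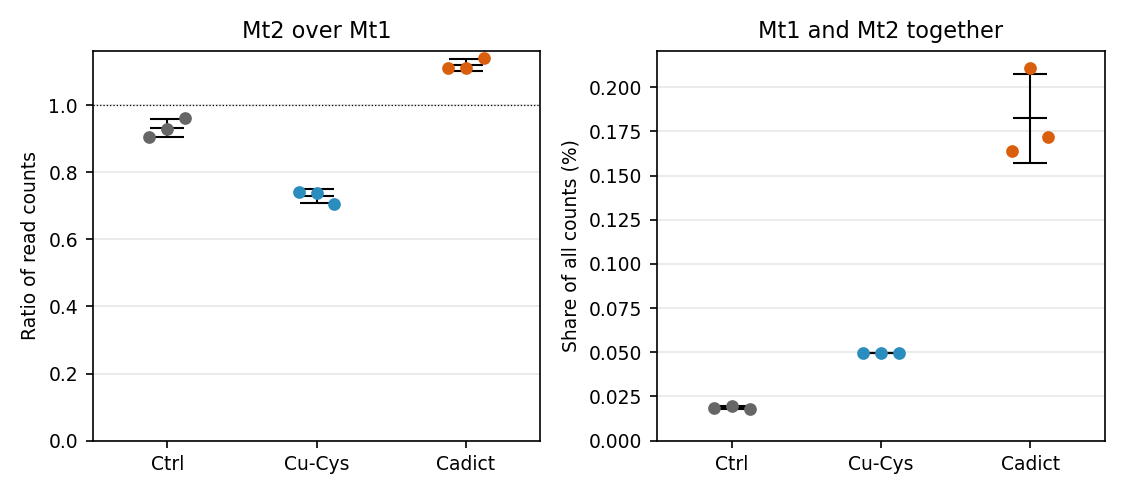
Ratio of Mt2 to Mt1 read counts (left, dotted line at 1) and percent of all counts taken by both genes (right) in each library, with group means and SD (n = 3). The ratio is 0.705 to 0.742 in Cu-Cys, 0.904 to 0.96 in Ctrl and 1.11 to 1.14 in Cadict, while the share rises in the order Ctrl, Cu-Cys, Cadict.

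Transcript length moved with the changes in Cadict. The shortest of 5 length classes had a median log2 fold change of 0.56 in Cadict against Ctrl and the longest -0.40, against 0.12 and -0.07 in Cu-Cys against Ctrl. Mt1 and Mt2, with effective lengths of 213 and 225 bases, were in the shortest class, and Slc30a1 (4740 bases) and Mtf1 (7300 bases) in the longest, which began at 4520 bases. The part of length in the changes was not tested.

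The tested neighbours of Mt1 and Mt2 were not called. Of 6 protein-coding genes within 100000 bases, Mt1 and Mt2 included, 4 were tested. Those besides Mt1 and Mt2 were Bbs2, which encodes a subunit of the ciliary BBSome, and Nup93, which encodes a nuclear pore protein. Neither was called in either treatment. The shares called over all genes tested were 20.7% higher and 27.1% lower in Cadict, and 0.167% and 1.47% in Cu-Cys, so a gene without a call was common. Bbs2 changed by -0.13 in Cadict and -0.36 in Cu-Cys (adjusted p = 0.117 and 0.000877, edgeR's quasi-likelihood test). Nup93 changed by -0.14 and 0.16 (adjusted p = 0.0113 and 0.0147, same edgeR test), all log2 fold changes against Ctrl. Mt3, a metallothionein best known from brain, had 0 to 2 counts in every library and was not tested. Mt4 was not analysed here.

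The other genes of zinc and copper handling and of MTF1's surroundings were counted by lists. Over all these lists, members left out, 20 genes were called higher and 6 lower in Cadict against Ctrl with TMM, and 9 higher and 16 lower with library totals, so the directions of the Cadict counts below hold relative to the typical gene. Of all genes tested, 20.7% were called higher and 27.1% lower in that comparison with TMM. With library totals 828 of 11949 were called higher and 6148 lower, so the whole table moved the same way. Leaving out 1 library at a time gave 18 to 20 list genes called higher and 6 to 7 lower.

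Among the other zinc exporters tested, no gene was called with TMM scaling. Of 10 exporters, 6 were tested, and Slc30a1 was the 1 called higher in Cadict and the 1 called higher in Cu-Cys, with 0 called lower. In Cadict against Ctrl Slc30a6 changed by 0.71, Slc30a4 by 0.29, Slc30a7 by 0.23, Slc30a9 by 0.01 and Slc30a5 by -0.41, and with library totals the sign of Slc30a4, Slc30a6, Slc30a7 and Slc30a9 turned negative. Slc30a5 was then called lower, at -1.36, and with limma it was called lower at -1.28 and -1.36 on FPKM and at -1.64 and -1.71 on TPM (pseudocounts 1 and 0.1). On TPM Slc30a9 (-1.25 and -1.29) was also called lower, and Slc30a4 with a pseudocount of 0.1 (-1.01). In Cu-Cys against Ctrl these 5 genes lay between -0.25 (Slc30a4) and 0.19 (Slc30a7). The median of the 6 tested exporters was 0.26 in Cadict, where that of all genes was -0.13. Slc30a10, an exporter of manganese, had 4 to 7 counts in Cadict libraries and 0 to 1 in the others, and was not tested. Slc30a2 and Slc30a3, which load zinc into vesicles, had at most 1 and 3 counts.

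Other known MTF1 targets went in several directions. Of 10 listed, 9 were tested. Cadict against Ctrl had 5 called higher and 1 lower (median log2 fold change 1.21), and Cu-Cys against Ctrl had 2 called higher and 0 lower (median -0.01). Of all genes tested, 20.7% were called higher and 27.1% lower in Cadict, and 0.167% and 1.47% in Cu-Cys. Slc39a10, which encodes a zinc importer that MTF1 is known to repress, was the 1 called lower in Cadict, and yet it was called higher in Cu-Cys. Its level was 46.02 to 48.4 CPM in Ctrl, 116.9 to 131.3 in Cu-Cys and 9.935 to 11.17 in Cadict, with no overlap. The log2 fold change against Ctrl was 1.38 in Cu-Cys (SE 0.057, adjusted p = 6.36e-10, edgeR's quasi-likelihood test) and -2.18 in Cadict (SE 0.0778, adjusted p = 4.3e-13, same edgeR test), and that of Cadict against Cu-Cys was -3.57 (adjusted p = 2.01e-15, same edgeR test). In Cu-Cys the importer thus rose together with Mt1, Mt2 and Slc30a1, and in Cadict it fell while they rose. Csrp1, which encodes a LIM-domain protein of the actin cytoskeleton, was 5.88-fold higher in Cadict and changed by -0.77 on the log2 scale in Cu-Cys. Ndrg1, a stress-responsive gene, was 3.96-fold higher in Cadict and changed by -0.50 in Cu-Cys. The other gene called higher in Cu-Cys was Gclc, named after its values were seen, which encodes the catalytic subunit of the enzyme that starts glutathione synthesis (log2 fold change 1.15 in Cu-Cys and 1.41 in Cadict). The Cadict call of Gclc was lost with library totals (0.45), FPKM (0.40 and 0.42) and TPM (0.08 and 0.08), and its Cu-Cys call on TPM (0.96 and 0.99). On TPM the Cadict call of Ndrg1 was lost too (0.67 and 0.68).

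**Figure D5:**
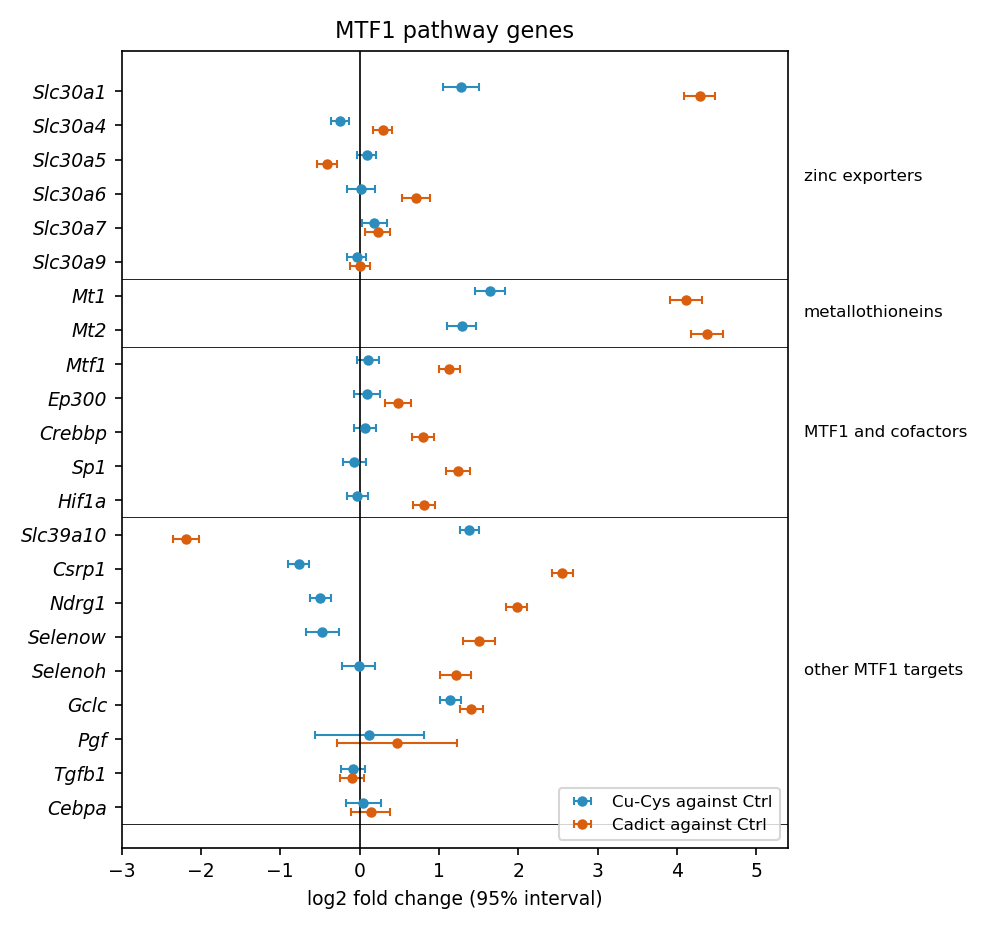
Log2 fold changes with 95% intervals in Cu-Cys (blue) and Cadict (orange) against the same Ctrl libraries, for tested zinc exporters, metallothioneins, MTF1 with its cofactors and other MTF1 targets. Mt1, Mt2 and Slc30a1 lie to the right in both treatments, Slc39a10 lies at 1.38 in Cu-Cys and -2.18 in Cadict, and library totals move the median Cadict change of all genes from -0.13 to -1.08.

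MTF1 works with cofactors at its target promoters. Of the 4 listed, all were tested, and with Cadict 1 was called higher (median 0.80), which was Sp1, a general promoter-binding factor (log2 fold change 1.24), a call lost with library totals (0.29) and on FPKM (0.27 and 0.28). The coactivator Crebbp changed by 0.80 and the hypoxia factor Hif1a by 0.81, and all 3 turned negative with limma on TPM, as Mtf1 did. In Cu-Cys against Ctrl 0 of the 4 were called (median 0.02). Of all genes tested, 20.7% were called higher in Cadict and 0.167% in Cu-Cys.

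Zinc importers showed no common direction. Of 14 listed, 11 were tested, with 2 called higher and 2 lower in Cadict against Ctrl (median log2 fold change 0.02), and 1, Slc39a10, called higher in Cu-Cys. Beside these counts and those of the copper genes below, 20.7% of all genes tested were called higher in Cadict and 27.1% lower. In Cu-Cys the shares were 0.167% and 1.47%. Slc39a4, the intestinal zinc importer, was 6.26-fold higher in Cadict from 0.4623 CPM in Ctrl, a call lost on FPKM and TPM with a pseudocount of 1 (log2 fold changes 0.57 and 0.57), and Slc39a3, a plasma membrane importer, changed by -1.45 on the log2 scale. For copper handling, the metal delivered by both treatments, all 14 genes were tested, with 5 called higher and 2 lower in Cadict (median -0.23) and 0 in either direction in Cu-Cys (median 0.18), where 6 passed an adjusted p of 0.05 alone as higher and 1 as lower, beside 22.6% and 22.4% of all genes tested. Cox17 and Cox11, chaperones that bring copper to cytochrome oxidase, changed by 2.08 and -2.61 in Cadict, and Sod1, the copper-zinc superoxide dismutase, by 1.95. The call of Sod1 was lost with library totals (0.996), FPKM (0.92 and 0.92) and TPM (0.58 and 0.58), and that of Cox17 on FPKM with a pseudocount of 1 (0.996) and on TPM (0.65 and 0.66).

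Letters of the NRF2 site matched once each in the Mt2 and Slc30a1 windows and at least once in 12.4% of all windows. Whether NRF2 acts at these matches was not tested. Known NRF2 targets were counted in the same way as the other lists. All 8 were tested, with 7 called higher and 0 lower in Cadict (median log2 fold change 2.19), where 20.7% of all genes tested were called higher. In Cu-Cys 2 of them, Hmox1 and Gclc, were called higher and 0 lower (median 0.85), where 0.167% of all genes tested were called higher. Hmox1, which encodes haem oxygenase 1, was 804-fold higher in Cadict and 4.69-fold higher in Cu-Cys against Ctrl. Txnrd1, a thioredoxin reductase, was 14.8-fold higher in Cadict and changed by 0.77 on the log2 scale in Cu-Cys, and Gclm, the modifier subunit of the glutathione-synthesis enzyme, was 11.3-fold higher in Cadict and changed by 0.88 in Cu-Cys. Glucocorticoids are another known inducer of metallothioneins, and 5 of 6 listed glucocorticoid targets were tested. In Cadict 1 was called higher (Sgk1, a kinase gene, 1.66) and 2 lower (Fkbp5, an immunophilin gene, -1.70, and Tsc22d3, which encodes GILZ, -1.40), with a median of -0.06, and in Cu-Cys 0 were called (median -0.07). When only an adjusted p of 0.05 was required, 1 of the 5 was higher and 2 were lower in Cu-Cys, beside 22.6% and 22.4% of all genes tested. Beside the Cadict calls of these glucocorticoid targets, 20.7% of all genes tested were called higher and 27.1% lower. The call of Sgk1 in Cadict was lost with library totals (0.71), FPKM (0.68 and 0.70) and TPM (0.35 and 0.35).

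The genes most like each member were those with the smallest root mean square difference in log2 CPM over the 9 libraries, each centred on its own Ctrl mean, among 8551 genes averaging at least 10 CPM. For Slc30a1 they were Havcr2 (0.131), Mt2 (0.183), Rab20 (0.252), Olfr1033 (0.293) and Mt1 (0.304). For Mt2 they were Slc30a1 (0.183), Havcr2 (0.192), Rab20 (0.204), Mt1 (0.257) and Hbegf (0.341). For Mt1 they were Havcr2 (0.241), Mt2 (0.257), Slc30a1 (0.304), Rab20 (0.43) and Il1rl1 (0.432). Havcr2 encodes the immune receptor TIM-3, Rab20 a small GTPase of the endosome, Hbegf a growth factor that binds the EGF receptor, Il1rl1 the IL-33 receptor and Olfr1033 an olfactory receptor. Mt1, Mt2 and Slc30a1 were thus each among the 5 nearest of the others. For Mtf1 they included Tor1aip2 (0.044), Tlk2 (0.0453), Cap1 (0.0469) and Usp14 (0.0474), whose log2 fold changes in Cadict against Ctrl were 1.09 to 1.19.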

How the data were processed

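Per the file headers, the authors deposited for each of 16509 genes and 9 libraries an expected count (estimated, with fractions in 11.6% of values), an FPKM value, a TPM value and a signal, which was the count divided by a size factor per library. The submitters' processing notes name HISAT2 2.1.0, Bowtie2 2.3.4.3 and RSEM 1.3.1, with the builds GRCh38.p13 and GRCm39, in no stated role. The labels name a column kit and DNA nanoball sequencing, whereas the study's text names TRIzol and an Illumina instrument. Columns labelled CC were read as Cu-Cys by its initials, and CCGE as Cadict, which was inferred from its components. Deposited group averages were left out.

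Rounding of the expected counts preceded the analysis with edgeR 4.0.16 in R 4.3.3 (filterByExpr, TMM, quasi-likelihood test, 1 fit of 3 groups, Benjamini-Hochberg adjustment over 11949 genes). The SE is the log2 fold change divided by the square root of F. The fold threshold of 2 and adjusted p of 0.001 followed the study. The procedure was tested on simulated data in which far fewer genes changed than were called in Cadict. That simulation does not bear on the choice of scaling for the Cadict libraries. The members and lists were chosen with earlier results of these data known. Named besides the members were the listed metallothioneins and zinc exporters, up to 3 genes per other list with the largest change in Cadict against Ctrl, and the 5 genes nearest each member, of which 1 is not reported here. Alternatives were DESeq2 1.42.0 size factors and Wald test, library totals, other filters, a replicate block, fits of 2 groups, limma 3.58.1 on log2 FPKM or TPM with pseudocounts of 1 and 0.1, each library left out and, chosen after seeing the data, the deposited size factors. Promoter windows came from RefSeq on GRCm38.p6 and gene positions from GENCODE M21. Both are of another build than GRCm39, so no coordinate was carried over.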

Additional observations from a re-analysis of the deposited data

How the results depend on the processing

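Mt1, Mt2 and Slc30a1 kept their direction under every alternative in all 3 comparisons, and their calls too, except that the Cu-Cys change of Slc30a1 fell under the required fold with limma and a pseudocount of 1, at 0.831 (FPKM) and 0.8835 (TPM). Mtf1 did not. Against Ctrl in Cadict its log2 fold change of 1.13 became 0.1802 with library totals, 0.1452 and 0.1722 with limma on FPKM (pseudocounts 1 and 0.1) and -0.1477 and -0.1679 on TPM. In Cadict against Cu-Cys it became 0.143, 0.1149, 0.1359, -0.1159 and -0.1323 in that order, and 0.9884 and 0.9367 with at least 10 counts in every library and with no filter. In Cu-Cys against Ctrl, where it was not called, it became -0.0318 and -0.03559 on TPM. By construction these units do not correct for the shift of the typical gene, and other causes were not tested.

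The number of genes called in Cu-Cys against Ctrl, 196, became 119 with at least 10 counts in every library, and 71 and 117 with limma on FPKM and TPM with a pseudocount of 1. For Cadict against Ctrl the pathway genes other than the members called higher, 20, became 9 with library totals, 6 and 9 on FPKM (pseudocounts 1 and 0.1) and 4 and 6 on TPM, while those called lower, 6, became 16, 13, 16, 19 and 24. In Cadict against Cu-Cys the 18 called higher became 6, 6, 6, 5 and 5 and the 8 called lower became 16, 13, 16, 17 and 21. In TPM the combined share of Mt1 and Mt2 differed by 0.8938, 0.215 and 0.6789 percentage points (Cadict from Ctrl, Cu-Cys from Ctrl and Cadict from Cu-Cys).

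Named genes outside the members that changed sign in Cadict against Ctrl did so mostly with library totals, limma on FPKM (pseudocounts 1 and 0.1) and limma on TPM (1 and 0.1). In that order Slc30a6 gave -0.2401, -0.2307, -0.2489, -0.5622 and -0.5924, Slc30a4 -0.6623, -0.646, -0.6636, -0.9901 and -1.009, Slc30a7 -0.7266, -0.29, -0.3162, -0.6219 and -0.6606, Slc30a9 -0.9445, -0.8961, -0.9426, -1.245 and -1.289, Hif1a -0.1432, -0.1477, -0.1508, -0.4887 and -0.4956, and Crebbp -0.1528, -0.1009, -0.1162, -0.4147 and -0.4571. Sp1 gave -0.06599 and -0.06743 on TPM, and Slc30a9 -0.05265 and -0.0709 with at least 10 counts and with no filter. In Cu-Cys against Ctrl, Slc30a6 gave -0.05514 with library totals, -0.01014 with at least 10 counts, -0.04612 and -0.04958 on FPKM and -0.1161 and -0.1212 on TPM, where Slc30a5 gave -0.04948 and -0.05058 and Slc30a7 -0.001326 and -0.001342.

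Leaving out each library in turn gave log2 fold changes in Cadict against Ctrl of 3.972 to 4.186 for Mt1, 4.242 to 4.458 for Mt2, 1.083 to 1.18 for Mtf1 and 4.216 to 4.357 for Slc30a1, and 143 to 229 genes called in Cu-Cys against Ctrl. In Cadict against Cu-Cys Mtf1 ranged from 0.976 (without Cadict replicate 3) to 1.073. Slc30a9 in Cadict turned to -0.01821 without Ctrl replicate 2 and -0.03451 without Cadict replicate 2, and in Cu-Cys to 0.003858 without Cu-Cys replicate 3, within ranges up to 0.03756 and down to -0.06353. Slc30a6 in Cu-Cys turned to -0.01669, -0.04306 and -0.002405 without Ctrl replicate 3, Cu-Cys replicate 1 and Cu-Cys replicate 2, with a highest value of 0.08059.

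The replicate number as a block changed no member's call, and gave 5685, 183 and 5019 genes called (Cadict from Ctrl, Cu-Cys from Ctrl and Cadict from Cu-Cys). The main test did not treat same-numbered libraries as pairs. Their deviations from the group means correlated at -0.223 to 0.144 over 8551 genes. With 3 libraries per group these correlations cannot decide whether same-numbered libraries were handled together.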
